A study of Canis lupus familiaris with 6 samples.

Results

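The desmosomal cadherins were followed in CPEK cells, a line of canine epidermal keratinocytes, after cold atmospheric microwave plasma. The members were the 7 genes with the symbols DSC1, DSC2, DSC3, DSG1, DSG2, DSG3 and DSG4, out of 35993 genes in the gene table. All 7 were among the 14708 genes with enough reads to be tested, and each kept its own row, its count and its length-scaled level in every library. There were 3 libraries of gas control cells and 3 libraries of cells exposed directly to the plasma, called dCAMP here. All 6 came from the same line of wild-type genotype, grown in DMEM with fetal bovine serum. The dCAMP cells were exposed for 30 s, and the study's methods give 30 s for the gas control as well. Both groups were given fresh medium 15 min later, and RNA was collected at 24 h. The gas control cells served as the comparison for exposure to gas without plasma. A single cell line grown as a monolayer stands in for the layered epidermis here. The sample labels do not say whether the 3 libraries of a group came from separate cultures, so the p-values measure the spread between these libraries, which may be technical.

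Desmosomes are the spot-like junctions that tie the keratin filaments of neighbouring keratinocytes together. Their adhesive proteins are cadherins of 2 subfamilies, the desmocollins (DSC) and the desmogleins (DSG), which bind each other across the gap between cells through calcium-dependent extracellular repeats. Inside the cell their tails bind plakoglobin (JUP) and the plakophilins, and desmoplakin (DSP) links these to keratin. In epidermis DSG3 and DSC3 are strongest in the basal layers, DSG1 and DSC1 in the upper layers, DSG2 in cells of simple epithelia and in the least differentiated keratinocytes, and DSG4 in the hair follicle and the outermost layers. DSG1 and DSG3 are targets of the autoantibodies of human pemphigus, and DSC1 is a major target in the canine foliaceus form.

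The 7 genes lie side by side on chromosome 7, at 57981918 to 58457593 in CanFam3.1, the build of the deposited tables. From the lower coordinate upwards the order was DSG2, DSG3, DSG4, DSG1, DSC1, DSC2 and DSC3, so that the desmogleins and the desmocollins form separate blocks. The only other gene in the span was LOC102154138, between DSG2 and DSG3, with 0 to 20 counts per library, which was not tested. No member overlaps another gene in the table. DSG2 (gene 490500) spans 57981918 to 58030197, DSG3 (403470) 58046563 to 58077926, DSG4 (612592) 58101294 to 58135376 and DSG1 (403401) 58159283 to 58239018. DSC1 (490501) spans 58322959 to 58350092, DSC2 (403860) 58369316 to 58402028 and DSC3 (100685374) 58412769 to 58457593.

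The library totals ran from 43084921 to 54082634 counts. Keratinocyte identity was checked on 8 markers, and all 8 were tested. Their summed level was 46960 to 57900 counts scaled to library size (CPM) in the gas libraries and 43370 to 46420 CPM in the dCAMP libraries, and KRT5 alone was at 21830 to 28160 CPM. Of the 8 markers of suprabasal keratinocytes 5 were tested, and SPRR1B was not analysed here. The others summed to 708.4 to 1584 CPM in gas and 938.8 to 1326 CPM in dCAMP. IVL made up most of this sum, at 636.6 to 1439 CPM in gas and 855.5 to 1206 CPM in dCAMP. KRT10, KRTDAP and TGM1 were at 10.2 to 84.73 CPM and LOR at 1.47 to 3.565 CPM. FLG fell under the filter, and KRT1, the keratin of the spinous layer, was at 0 in every library. Of the other lineages, 8 fibroblast markers (4 tested) summed to 6.60 to 7.02 CPM in gas and 6.51 to 7.10 in dCAMP, with DCN, LUM and PDGFRB at 0. The 6 melanocyte markers (3 tested) summed to 5.74 to 9.12 CPM in gas and 8.87 to 9.78 in dCAMP, with TYR, TYRP1 and DCT at 0. The 4 endothelial markers (3 tested) summed to 15.6 to 18.4 CPM in gas and 18.8 to 24.7 in dCAMP, with PECAM1 at 0. The 5 immune markers (1 tested) summed to 0.490 to 1.77 CPM in gas and 0.607 to 1.28 in dCAMP, with PTPRC, CD3E, CSF1R and CD207 at 0. The keratinocyte sum was lower and the endothelial sum higher in all dCAMP libraries than in any gas library, and their part in the results below was not tested. KRT5 and KRT14 made up most of the keratinocyte sum. Of the 8 keratinocyte markers, 5 had a lower mean in dCAMP and 3 (TP63, CDH1 and EPCAM) a higher mean. In bulk RNA, fewer cells of a type and less RNA per cell cannot be told apart.

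The level of each gene per length was read from the FPKM, fragments scaled to transcript length and to mapped fragments, which allows the 7 genes to be set beside each other. Across all 6 libraries DSG3 had the highest mean level, 211 FPKM, followed by DSC3 at 91.2, DSC2 at 84.4, DSG1 at 35.3 and DSG2 at 12.6 FPKM. DSG4 and DSC1 were far below, at 0.245 and 0.10 FPKM. The step from DSG2 to DSG4 was 51.7-fold, and DSG3 was 2110-fold above DSC1. The smallest step was between DSC3 and DSC2, 1.08-fold in the mean, and these neighbours traded places between the groups. All other neighbours kept their order in each of the 6 libraries. Both weakest genes were read on few fragments, with 19 to 35 counts for DSC1 and 32 to 77 counts for DSG4, against up to 42998 for DSG3.

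**Figure D1:**
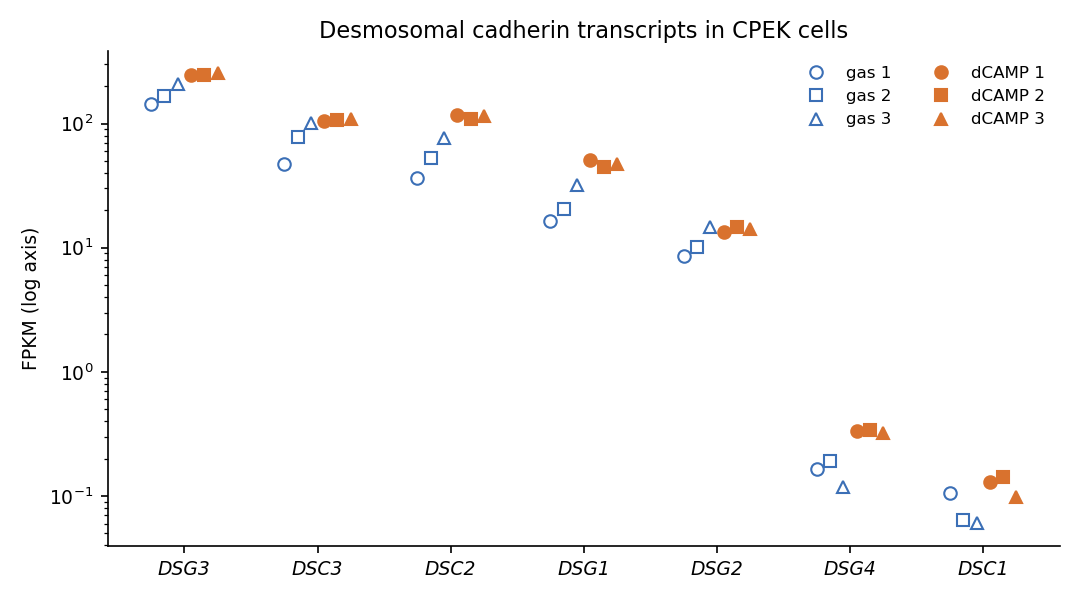
Level of each desmosomal cadherin in each library, in FPKM on a log axis, ordered by the mean of the 6 libraries (open symbols, gas control; filled symbols, dCAMP; circle, square and triangle, replicates 1, 2 and 3). The 5 upper genes lie above 8 FPKM in every library, while DSG4 and DSC1 lie below 0.35 FPKM.

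The first comparison asked whether the plasma altered the transcripts of these adhesion proteins. All 7 members had a higher mean CPM in dCAMP than in gas, with a median log2 fold change of 0.56 against 0.03 over all genes tested. By the rule of at least 2-fold with an unadjusted p under 0.05, 2 members were called higher, DSC2 and DSG4, where 0.959% of the 14708 genes were called. With an unadjusted p under 0.05 and any fold, 4 members (DSC2, DSG1, DSG3 and DSG4) were higher, where 6.81% of genes were. After Benjamini-Hochberg adjustment of edgeR's quasi-likelihood test 0 members and 0% of the genes passed 0.05, although 3040 genes had an unadjusted p under 0.05, and DESeq2 passed 301 genes. By DESeq2's adjusted p 2 members, DSC2 and DSG1, passed in the higher direction, where 0.611% of the 11627 genes given an adjusted p did. In that fit DSG4 and DSC1 were given no adjusted p. With DESeq2 restricted to genes read in every library, DSG4 had an adjusted p of 0.0276. With limma voom and sample quality weights all 7 members passed as higher, but so did 32.6% of genes, and 8944 of the 14708 genes passed in either direction. In 5 members every dCAMP library was above every gas library in CPM, where 19% of genes showed this. The share of members past each unadjusted rule is thus above that of all genes, on a list of 7.

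Among the desmocollins, DSC2, the most widely expressed of them across epithelia and heart, had the larger difference. Its level was 189.3, 280.2 and 415.2 CPM in the 3 gas libraries and 623.0, 578.7 and 608.5 CPM in the 3 dCAMP libraries. The lowest dCAMP library was above the highest gas library, and gas replicate 1 was the lowest of all. DSC2 had a log2 fold change of 1.03 (SE 0.27), a 2.05-fold difference with an unadjusted p of 0.00771 and an adjusted p of 0.221 in edgeR's quasi-likelihood test. In FPKM the means were 55.4 ± 20.4 in gas and 113.5 ± 3.62 in dCAMP (SD, n = 3 each). Only 2.81% of genes had a larger log2 fold change.

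DSC3, the desmocollin of the basal and lower spinous layers, was at 175.3, 297.2 and 386.1 CPM in gas and 399.4, 397.4 and 411.3 CPM in dCAMP. The groups did not overlap, but gas replicate 3, at 386.1 CPM, was close to the lowest dCAMP library at 397.4 CPM. DSC3 had a log2 fold change of 0.49 (SE 0.27), with an edgeR unadjusted p of 0.112 and an adjusted p of 0.294. DSC1 was read at 28, 20 and 19 counts in gas and 35, 30 and 26 counts in dCAMP, which overlap. Its log2 fold change of 0.56 (SE 0.28) had an edgeR adjusted p of 0.271, with an unadjusted p of 0.0858.

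Among the desmogleins, DSG1 and DSG4 had the larger differences. DSG1, the desmoglein that staphylococcal exfoliative toxins cleave, was at 115.0, 158.7 and 222.5 CPM in gas and 346.4, 296.7 and 315.3 CPM in dCAMP. The dCAMP libraries were all above the gas libraries, and gas replicate 1 was again lowest. The log2 fold change of DSG1 was 0.95 (SE 0.23), or 1.93-fold, just under the 2-fold limit, with an edgeR unadjusted p of 0.00602 and an adjusted p of 0.221. DSG4, whose loss causes sparse hair in several mammals, was read at 37, 50 and 32 counts in gas and 77, 72 and 71 counts in dCAMP. Its groups did not overlap, and here gas replicate 3, not gas replicate 1, was lowest. DSG4 had a log2 fold change of 1.02 (SE 0.21), or 2.03-fold, with an edgeR unadjusted p of 0.00223 and an adjusted p of 0.221, at a level of 0.158 ± 0.0367 FPKM in gas and 0.331 ± 0.0106 FPKM in dCAMP (SD, n = 3 each).

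DSG3, the most abundant of the 7 genes and the desmoglein of the basal layers, was at 524.9, 629.1 and 795.5 CPM in gas and 920.6, 924.1 and 951.6 CPM in dCAMP. All dCAMP libraries were above all gas libraries, and they lay within a narrow range. For DSG3 the log2 fold change was 0.52 (SE 0.15), or 1.43-fold, with an edgeR unadjusted p of 0.0127 and an adjusted p of 0.221. DSG2 was at 49.99, 60.78 and 87.78 CPM in gas and 80.26, 86.90 and 84.17 CPM in dCAMP. Gas replicate 3 was above all 3 dCAMP libraries for DSG2, so the groups overlapped. Its log2 fold change was 0.34 (SE 0.21), with an edgeR unadjusted p of 0.149 and an adjusted p of 0.322.

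**Figure D2:**
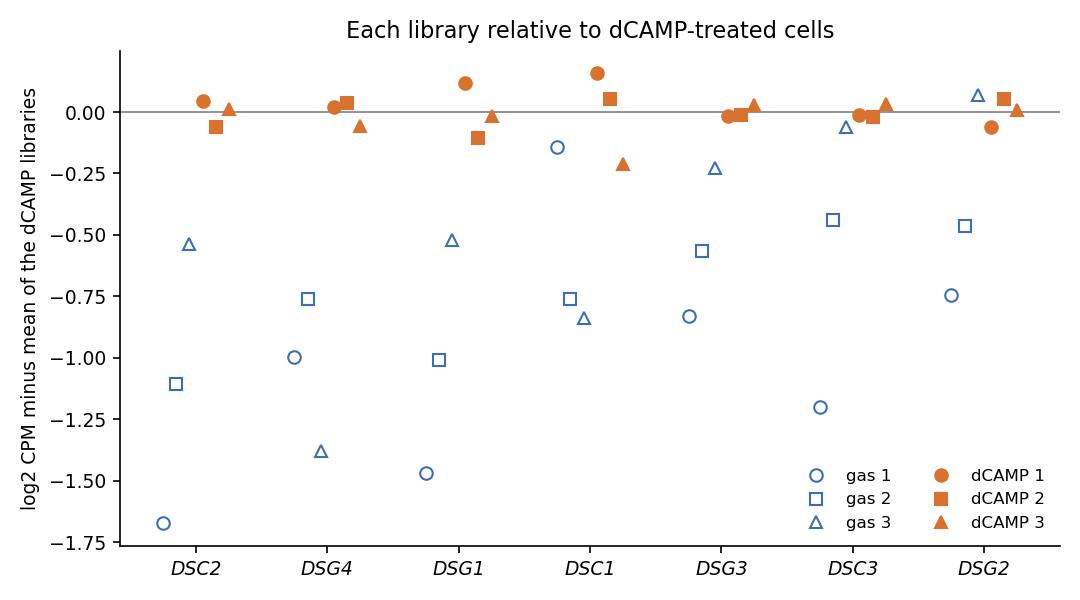
Each library's level of the 7 genes as log2 CPM minus the mean of the 3 dCAMP libraries for that gene, so that 0 marks the dCAMP mean (open symbols, gas control; filled symbols, dCAMP; circle, square and triangle, replicates 1, 2 and 3). Gas replicate 1 is lowest for DSC2, DSC3, DSG1, DSG2 and DSG3, at -0.74 to -1.67, and gas replicate 3 lies nearest to dCAMP in these genes.

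The gas libraries differed among themselves more than the dCAMP libraries did. In DSC2, DSC3, DSG1, DSG2 and DSG3 gas replicate 1 was lowest and gas replicate 3 highest. The log2 distance of gas replicate 3 from the dCAMP mean was -0.54 for DSC2, -0.52 for DSG1, -0.23 for DSG3, -0.06 for DSC3 and 0.07 for DSG2. Without gas replicate 3, 6 members (all but DSC1) passed an edgeR adjusted p of 0.05, where 15% of genes were higher and passed. By the 2-fold rule 2 members, DSC2 and DSG1, were then called, where 9.84% of genes were. Over all alternatives tried the adjusted p of DSC2 ranged from 0.0002 to 0.502. Without gas replicate 1 the log2 fold change of DSC2 was 0.78 and that of DSG1 was 0.73, and 1 member, DSG4, kept the 2-fold call.

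Gene length moved with the same libraries. The median log2 level of the longest of 10 length classes of genes, relative to the mean of the 6 libraries, was -0.227 in gas replicate 1, -0.124 in gas replicate 2, 0.0925 in gas replicate 3 and 0.0833 to 0.140 in the dCAMP libraries. All 7 members belonged to the longer 4 of 10 length classes, in which the median log2 fold change of all genes was 0.0683 to 0.214. With the length trend of each library removed, the log2 fold change was 0.88 for DSC2, 0.85 for DSG4, 0.76 for DSG1 and 0.42 for DSG3, and 0 members kept the 2-fold call. At that setting the edgeR unadjusted p was 0.00351 for DSC2, 0.00233 for DSG1, 0.0109 for DSG4 and 0.00913 for DSG3, and the adjusted p was 0.225 for each of these 4 genes. What sets the length trend was not tested.

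The second comparison set the desmocollins against the desmogleins. Summed FPKM of the 3 desmocollins was 84.27, 131.0 and 178.2 in gas and 221.7, 215.5 and 223.9 in dCAMP. Summed FPKM of the 4 desmogleins was 168.8, 198.2 and 256.7 in gas and 309.0, 307.6 and 316.1 in dCAMP. The dCAMP mean was 1.68 times the gas mean for the desmocollins and 1.5 times for the desmogleins. The desmocollin to desmoglein ratio was 0.499, 0.661 and 0.694 in gas and 0.717, 0.701 and 0.708 in dCAMP. Desmogleins exceeded desmocollins in all 6 libraries, and the ratio of the lowest dCAMP library was 0.701 beside 0.694 in the highest gas library.

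Within that sum, DSG3 held 51.9 ± 4.36% of the FPKM of the 7 genes in gas and 46.8 ± 0.746% in dCAMP (SD, n = 3 each). DSC2 held 14.4, 15.9 and 17.7% in gas and 21.9, 20.9 and 21.2% in dCAMP. DSG1 held 6.72 ± 0.624% in gas and 8.96 ± 0.595% in dCAMP, and DSC3 held 22.0 ± 2.75% and 20.1 ± 0.243%. DSG2 held 3.29 ± 0.167% in gas and 2.66 ± 0.144% in dCAMP. The shares of DSC2 and DSG1 were higher, and those of DSG3 and DSG2 lower, in every dCAMP library than in any gas library. For DSC3, DSG4 and DSC1 the shares of the groups overlapped.

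Ratios between single members do not depend on the total of a library. The length trend was not removed from them, and members differ in length class. DSC2 was in class 9 and DSC3 in class 7 of 10, DSG1 in class 10, the longest, and DSG3 in class 7. With the length correction the log2 fold change was 0.88 for DSC2, 0.40 for DSC3, 0.76 for DSG1 and 0.42 for DSG3. Of the 21 pairs of members, 9 (42.9%) had log2 CPM ratios that did not overlap between the groups, where 34.4% of all pairs of tested genes showed this. The count is thus near the share of all pairs, and the 9 pairs share members with each other. With 3 libraries against 3 the smallest exact permutation p is 0.1, two-sided, and each of the 9 pairs had this p, or 0.233 after Benjamini-Hochberg adjustment over the 21 pairs. The pairs were examined after the levels had been seen.

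The ratio of DSC2 to DSC3, in FPKM, was 0.768, 0.668 and 0.763 in gas and 1.11, 1.03 and 1.05 in dCAMP. By this measure, which rests on the transcript lengths, DSC3 was the more abundant desmocollin in each gas library, and DSC2 was in each dCAMP library. In CPM, not scaled to length, DSC2 was above DSC3 in gas replicates 1 (189.3 against 175.3) and 3 (415.2 against 386.1). It was below DSC3 in gas replicate 2 (280.2 against 297.2) and above it in each dCAMP library. The ratio of DSG1 to DSG3 was 0.115, 0.123 and 0.154 in gas and 0.209, 0.179 and 0.186 in dCAMP, also without overlap (exact permutation p of 0.1 for log2 CPM, two-sided). The ratio of DSC2 to DSG1 was 2.22, 2.55 and 2.39 in gas and 2.28, 2.46 and 2.43 in dCAMP, which overlap (exact permutation p of 0.2 for log2 CPM, two-sided). The ratio of DSC3 to DSG3 was 0.332, 0.469 and 0.482 in gas and 0.431, 0.427 and 0.429 in dCAMP, which overlap (exact permutation p of 1.0).

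**Figure D3:**
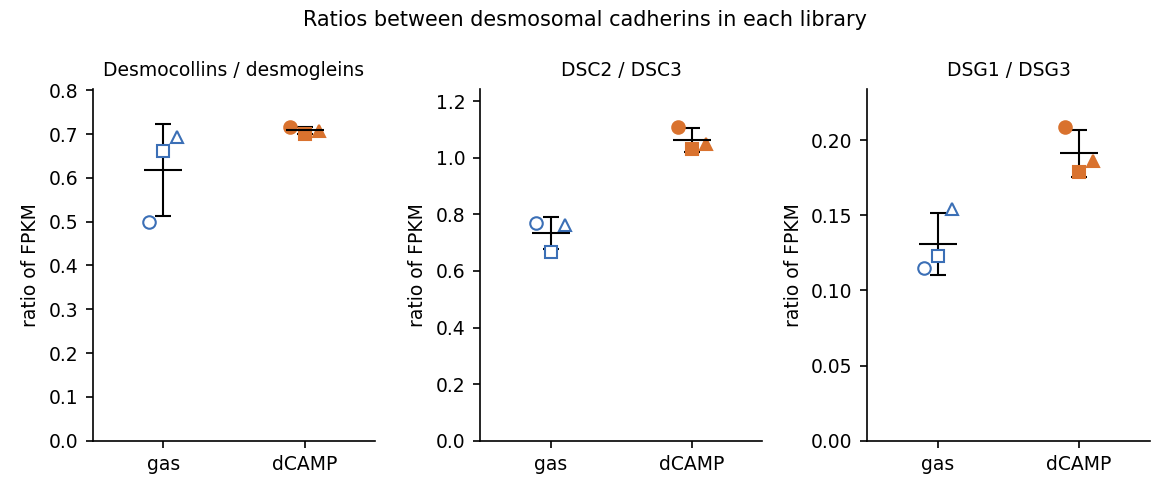
Ratios of FPKM in each library, with the mean and SD of each group of 3: summed desmocollins over summed desmogleins, DSC2 over DSC3, and DSG1 over DSG3, each on an axis that starts at 0 (open symbols, gas control; filled symbols, dCAMP). DSC2 over DSC3 lies between 0.668 and 0.768 in gas and between 1.03 and 1.11 in dCAMP, and the first ratio nearly touches between the groups.

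Against the other pairings, DSC2 was also higher relative to DSG2 and DSG3, by 0.73 and 0.56 on the log2 scale, and DSG1 relative to DSG2, by 0.62. The ratio of DSC3 to DSG1 differed by -0.43, that of DSG2 to DSG4 by -0.67, that of DSG3 to DSG4 by -0.50 and that of DSG2 to DSG3 by -0.16.

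Transcript models were read from the transcript table, in which DSC1, DSC2 and DSG1 have more than 1 transcript and DSC3, DSG2, DSG3 and DSG4 have 1 each. Assignment of reads to overlapping transcripts is an estimate of the assembly program. For DSG1, the curated transcript (5495 bases, 58160669 to 58193572) was at 9.48, 6.86 and 24.1 FPKM in gas and 39.8, 35.1 and 37.7 FPKM in dCAMP. The predicted variant X1 (7391 bases, 58159283 to 58239018) was at 6.95, 13.7 and 8.22 FPKM in gas and 11.4, 9.37 and 9.51 FPKM in dCAMP. The groups overlapped for X1 but not for the curated transcript, whose mean was 2.78 times as high in dCAMP. Variant X2 had 0 counts in each library, which allows up to 3 counts.

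The curated DSG1 transcript held 57.7, 33.4 and 74.5% of the gene's FPKM in gas and 77.8, 78.9 and 79.9% in dCAMP. The groups did not overlap, and the mean share was 23.6 percentage points higher in dCAMP (exact permutation p of 0.1, the smallest possible, and 0.3 after Benjamini-Hochberg adjustment over 3 tests). Without gas replicate 2 the difference was 12.7 points.

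DSC2 has 4 predicted transcripts with the same ends, named X1 to X4, in which X3 and X4 are 46 bases longer than X1 and X2, respectively. Desmocollins are known in 2 splice forms with different tails, called a and b; whether the 46 bases belong to that choice was not looked up. All 4 had higher FPKM in each dCAMP library than in any gas library. The dCAMP mean was 1.68 times the gas mean for X1, 1.75 times for X2, 2.30 times for X3 and 2.24 times for X4. X3 and X4 together held 37.4, 69.7 and 62.8% of the FPKM of DSC2 in gas and 66.0, 67.4 and 64.5% in dCAMP, which overlap (exact permutation p of 0.6). The low value was that of gas replicate 1 alone, and without it the difference was -0.313 points. For X3 alone the share was 21.7, 44.3 and 32.0% in gas and 34.3, 40.5 and 38.7% in dCAMP (exact permutation p of 0.6), and -0.333 points without gas replicate 1. DSC1 was carried by its curated transcript, at 19 to 35 counts per library, with 0 to 6 counts per library on the other transcripts together.

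**Figure D4:**
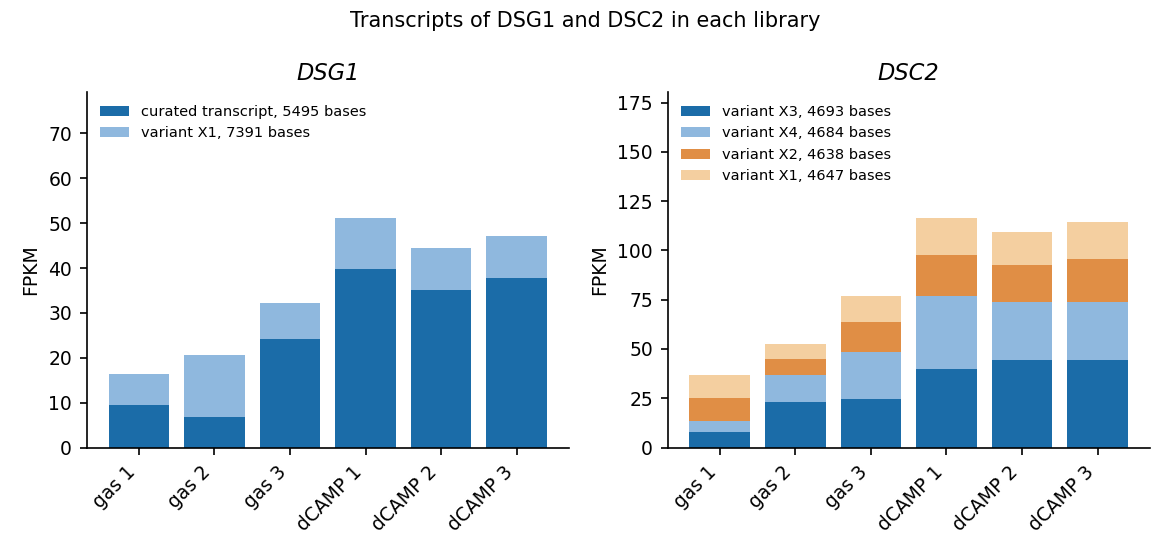
Transcript levels of DSG1 and DSC2 in each library, stacked in FPKM from 0. The curated DSG1 transcript makes up 77.8 to 79.9% of the gene in the dCAMP libraries and 33.4 to 74.5% in the gas libraries, while all 4 DSC2 transcripts are taller in dCAMP.

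The proteins that carry the cadherins' tails were taken as a list of 9 plaque genes. Of these, 5 had a higher and 4 a lower mean in dCAMP. An unadjusted edgeR p under 0.05 was reached by 2 (PERP and PKP2) in the higher direction and 0 in the lower. Of all genes tested, 6.81% reached it in the higher direction, and 3040 of 14708 did in either direction. The median log2 fold change was 0.01 against 0.03 over all genes. PERP, a tetraspan protein that desmosomes need in stratified epithelia, was at 704.9, 790.2 and 1019 CPM in gas and 1279, 1232 and 1230 CPM in dCAMP, with a log2 fold change of 0.57 (SE 0.14, edgeR adjusted p 0.221). PKP2, a plakophilin of basal cells and heart, was at 49.28, 58.27 and 60.85 CPM in gas and 68.82, 67.14 and 71.82 CPM in dCAMP (log2 fold change 0.30).

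The main linkers of the plaque did not pass even the unadjusted threshold. DSP was at 3429, 3245 and 3338 CPM in gas and 3721, 3407 and 3563 CPM in dCAMP. JUP, the plakoglobin that binds the cadherins directly, was at 1436, 1305 and 1092 CPM in gas and 1181, 1092 and 1117 CPM in dCAMP. The log2 fold changes were 0.09 for DSP, -0.18 for JUP, -0.22 for PKP1 and -0.29 for PKP3.

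In the 8 genes of the adherens junction, the actin-linked junction beside the desmosome, 4 were higher and 4 lower, with a median log2 fold change of -0.02. CTNNB1, beta-catenin, was higher at 950.4, 897.4 and 958.4 CPM in dCAMP against 668.0, 707.2 and 773.7 CPM in gas (log2 fold change 0.39, edgeR unadjusted p 0.00275). NECTIN1 was the single gene of the list that passed in the lower direction (log2 fold change -0.29, edgeR unadjusted p 0.0459, adjusted p 0.24). The list thus had 1 gene past the unadjusted threshold in each direction, where 3040 of the 14708 genes passed in either. CDH3, P-cadherin, had the same log2 fold change of -0.29 without passing (edgeR unadjusted p 0.0517). The log2 fold change was 0.10 for CTNND1 and -0.08 for CTNNA1.

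Of the 7 genes of the corneodesmosome and its proteases, 4 were tested, with 3 higher and 1 lower. CTSV was not analysed here, KLK5 had no count in any library and KLK7 fell under the filter. SPINK5, an inhibitor of kallikreins, passed in the higher direction (log2 fold change 0.23, edgeR unadjusted p 0.0485, adjusted p 0.24), though its groups overlapped. ST14, the protease matriptase, passed in the lower (-0.33, edgeR unadjusted p 0.0332, adjusted p 0.229). CDSN, corneodesmosin, was at 0.00 (SE 0.46) and the kallikrein KLK14 at 0.01 (SE 0.62) on the log2 scale. Both varied widely within gas, CDSN from 11.31 to 35.54 CPM and KLK14 from 0.452 to 2.40 CPM. The median of the list was 0.01, and 1 gene passed in each direction, where 3040 of the 14708 genes passed in either.

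Of the 9 sheddases and regulators of these cadherins, 7 were tested and 0 passed an unadjusted edgeR p of 0.05, with 6 higher and 1 lower and a median log2 fold change of 0.18. MMP9 fell under the filter and ZNF750 was not analysed here. ADAM10, a protease that sheds cadherin ectodomains, was at 78.14, 127.3 and 211.6 CPM in gas and 216.4, 229.8 and 216.0 CPM in dCAMP (log2 fold change 0.67). ERBIN, a scaffold protein of cell junctions, was at 16.48, 46.19 and 73.69 CPM in gas and 72.64, 80.85 and 81.71 CPM in dCAMP (log2 fold change 0.79). Both had their lowest value in gas replicate 1, as DSC2, DSC3, DSG1, DSG2 and DSG3 did. The log2 fold change was 0.18 for TP63, the transcription factor of basal keratinocytes, 0.10 for GRHL1 and -0.02 for GRHL3. In each of the 4 lists 0 genes reached 2-fold with an unadjusted p under 0.05 in edgeR, in DESeq2 or in limma. Without gas replicate 3 edgeR called 2 genes among the sheddases and regulators, where 1523 of 14975 genes were called.

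**Figure D5:**
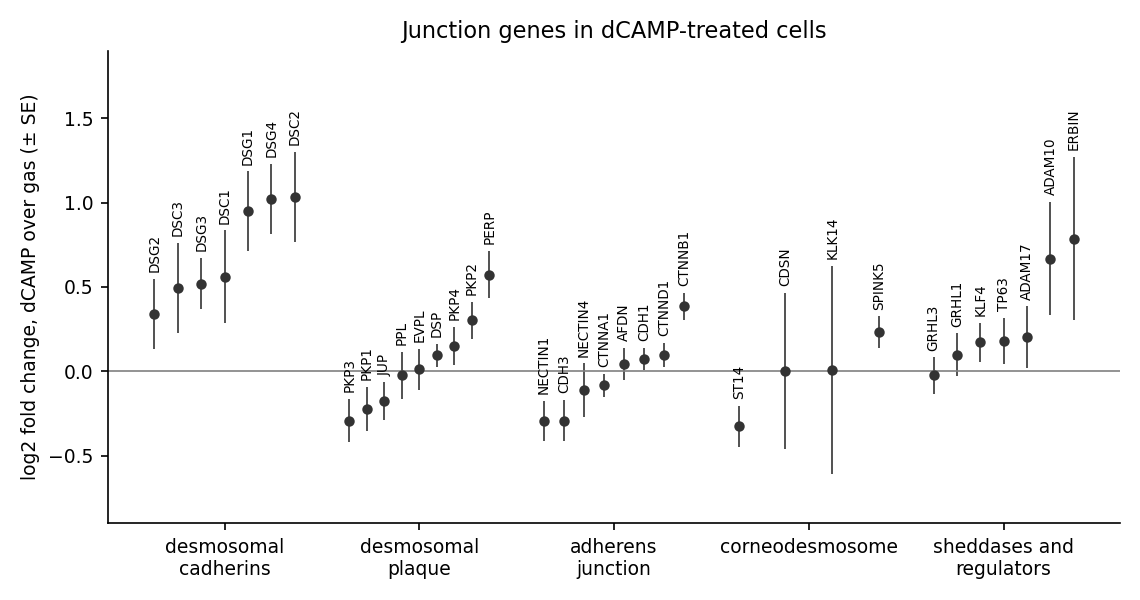
Log2 fold change of dCAMP over gas with its standard error for the 7 desmosomal cadherins and for the tested genes of 4 lists (plaque, adherens junction, corneodesmosome, sheddases and regulators). The cadherins lie between 0.34 and 1.03, with a median of 0.56. The list medians are 0.01 (plaque), -0.02 (adherens), 0.01 (corneodesmosome) and 0.18 (sheddases and regulators). PERP (0.57), CTNNB1 (0.39), ADAM10 (0.67) and ERBIN (0.79) lie within the range of the cadherins, and the other list genes lie below it.

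Across the 6 libraries, the genes whose log2 CPM followed DSG3 most closely were CLIP4, KIDINS220, CCDC186, SLC25A43 and ZHX1, with Pearson r of 0.9983 to 0.9995. These points share 2 groups and the length trend, so the r describes these 6 libraries and carries no p. Among the members, DSC2 followed DSG3 with r = 0.997 (rank 21 of 14707 genes) and DSG1 with r = 0.989 (rank 175). DSC3 and DSG2 had r = 0.941 and 0.939, at ranks 2045 and 2119 only. The weakly read DSG4 and DSC1 had r = 0.673 and 0.355, at ranks 5438 and 6466.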

How the data were processed

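RNA was sequenced from 3 gas control and 3 dCAMP libraries of CPEK cells, made with a stranded mRNA kit. Per the labels the authors used FastQC 0.11.7, Trimmomatic 0.38, HISAT2 2.1.0 and StringTie 2.1.3b on CanFam3.1; the annotation release is not given in the sources used here. The deposited gene table holds raw counts and FPKM for 35993 genes and the deposited transcript table the same for 87504 transcripts, the FPKM being scaled by the authors to gene or transcript length and mapped fragments. The tables also hold 12 columns of TPM values, which were not used.

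Counts were tested with edgeR 4.0.16 in R 4.3.3 (TMM factors, filterByExpr, quasi-likelihood F test, prior count 2, Benjamini-Hochberg adjustment over 14708 genes). Each standard error is the size of the log2 fold change over the square root of F. The 2-fold rule with an unadjusted p under 0.05 is that of the study's methods. DESeq2 1.42.0, limma 3.58.1 (voom with quality weights, and log2 of FPKM plus 1 or 0.1), other scalings and filters, a length correction (lowess, span 0.3), a replicate block and leaving out each library were alternatives. Ratios and transcript shares were compared by exact permutation over the 20 splits. The scripts were tested on simulated data. All 7 members and every gene of the lists were counted, and the list genes named are the 2 largest, 2 smallest and 2 most expressed of each list, plus the 5 genes most like the member of highest CPM. The members, lists and tests were chosen with earlier results of these data known. Gene IDs of 7 of 7 members matched the reference table, which was used for names only. Limits from counts of 0 cover counting error only.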

Additional observations from a re-analysis of the deposited data

How the results depend on the processing

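The log2 fold change of every member was positive in all 126 fits of a member (7 members, 12 alternatives and 6 left-out libraries), of which 105 stayed on the same side of the adjusted threshold, 18 moved past it and 3 were given no adjusted p. Of all genes, 161 were called by the 2-fold rule, against 369 with DESeq2, 327 with DESeq2 restricted to genes read in all libraries (1 count or more), 279 without a filter, 435 with the replicate block, 472 with the block and length correction, 1010 with voom and 342 on log2(FPKM + 0.1). Leaving out a library gave 135 to 1523, the last without gas replicate 3. Adjusted p under 0.05 was reached by 301 and 161 genes with the 2 DESeq2 settings, 8944 with voom, 3 on log2(FPKM + 0.1) and 0 to 4953 with a library left out. Of the members, 0 were called with upper-quartile factors, with the length correction or with that and the block, and 1 to 2 with a library left out (1 without gas replicate 1, gas replicate 2 or dCAMP replicate 2). Upper-quartile factors moved the median of all genes to -0.06.

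By adjusted p, 2 members passed with DESeq2, 3 with the restricted DESeq2 setting, 7 with voom and 0 to 6 with a library left out. The log2 fold changes that passed with voom were 0.80 for DSC1, 1.11 for DSC2, 0.44 for DSC3, 1.02 for DSG1, 0.44 for DSG2, 0.56 for DSG3 and 0.80 for DSG4. Those with DESeq2 were 1.02 for DSC2 and 0.94 for DSG1 in both settings, and 1.05 for DSG4 in the second. DESeq2 gave no adjusted p for DSC1, nor for DSG4 in the first setting. With a library left out the range was 0.39 to 0.79 for DSC1, 0.78 to 1.32 for DSC2, 0.22 to 0.73 for DSC3, 0.73 to 1.18 for DSG1, 0.16 to 0.55 for DSG2, 0.37 to 0.65 for DSG3 and 0.83 to 1.15 for DSG4. On log2(FPKM + 1) the low genes shrank, DSG4 to 0.20 and DSC1 to 0.06, by construction.

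The plaque median (0.01) was -0.26 with the length correction and -0.22 with the block as well, and -0.14 to 0.10 with a library left out. The adherens median (-0.02) was -0.18 and -0.17 in the same settings, and -0.10 to 0.01 with a library left out. The corneodesmosome median was -0.39 to 0.33 with a library left out. Called genes among sheddases and regulators numbered 0 to 2, the 2 without gas replicate 3. The DSC2 share of X3 differed by -0.333 to 11 points and that of X3 and X4 by -0.313 to 15.9 points with a library left out, both reversed without gas replicate 1. The DSG1 share differed by 12.7 to 33.3 points. The causes of these changes were not tested.

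The labels do not say whether the replicate numbers pair the libraries. Same-numbered libraries correlated at 0.130, 0.0237 and 0.0479 in their deviations, and differently numbered ones at -0.139 to 0.0873. Of the 6 libraries, 4 correlated best with their own number, and these values do not settle whether the libraries are paired. With the replicate block the log2 fold changes were 1.10 for DSC2, 0.997 for DSG1, 0.54 for DSG3 and 1.04 for DSG4, and 2 members were called.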
